A study of Mus musculus with 6 samples.

Results

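The spindle assembly checkpoint genes examined here are Mad1l1, Mad2l1, Bub1, Bub1b, Bub3 and Ttk, 6 of the 19938 genes that have a probe set of their own on the array. They were taken as the core genes of the pathway by name, but with earlier results of these data known. Each has 1 probe set annotated to it alone and 0 probe sets shared with another gene, so no choice between probe sets had to be made. Their transcripts were measured in pools of 100 oocytes arrested at the germinal vesicle (GV) stage, that is, in prophase of the first meiotic division with the nuclear envelope intact. The groups were 3 samples from mice homozygous for a Brwd1 mutation and 3 samples from wildtype mice, both on a B6/C3H background. Females of both groups were 2 to 6 months old and had received 5 IU of equine chorionic gonadotropin, a hormone that drives follicle growth, 44 h before oocyte collection. The labels do not give the kind of Brwd1 mutation, and they do not say whether the pools of a group came from different animals, so the p-values cover no more than the variation among these pools, part of which can be technical.

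The checkpoint delays anaphase until every chromosome is attached to spindle microtubules. Kinetochores that are not attached recruit the kinase encoded by Ttk, known as MPS1, which phosphorylates the scaffold protein KNL1 and thereby brings in BUB3 with its partners BUB1 and BUBR1, the product of Bub1b. MAD1, the product of Mad1l1, then converts MAD2, the product of Mad2l1, into the form that binds CDC20, and MAD2, BUBR1, BUB3 and CDC20 together form the mitotic checkpoint complex, which inhibits the anaphase-promoting complex. Fully grown mouse oocytes are transcriptionally quiet, and they carry stored messenger RNA for the meiotic divisions. Errors of chromosome segregation in these divisions are a source of aneuploid eggs, and the checkpoint has long been studied in oocytes for that reason.

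The window from 250 bases before to 50 bases after the annotated start of transcription was read for all 6 genes from RefSeq (mouse assembly GRCm38.p6). It is shown for Mad2l1, Bub1b and Ttk, whose measured levels did not overlap between the genotypes, and for Bub1, which encodes the kinase related to BUBR1. Each is written 5′ to 3′ on the strand of the gene. Capitals mark the letters of the cell cycle genes homology region (CHR, TTTGAA or its variant TTCGAA) and of the CCAAT box (CCAAT), searched on both strands, so that TTCAAA and ATTGG are the same motifs on the other strand.
Mad2l1 (chr6:66534971-66535270, plus strand): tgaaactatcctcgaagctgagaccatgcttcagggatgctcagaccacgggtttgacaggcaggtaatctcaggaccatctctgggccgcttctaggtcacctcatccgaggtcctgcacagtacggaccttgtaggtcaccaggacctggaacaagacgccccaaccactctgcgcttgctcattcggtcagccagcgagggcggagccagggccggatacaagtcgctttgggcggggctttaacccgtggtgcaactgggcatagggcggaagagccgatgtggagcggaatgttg
Bub1b (chr2:118597961-118598260, plus strand): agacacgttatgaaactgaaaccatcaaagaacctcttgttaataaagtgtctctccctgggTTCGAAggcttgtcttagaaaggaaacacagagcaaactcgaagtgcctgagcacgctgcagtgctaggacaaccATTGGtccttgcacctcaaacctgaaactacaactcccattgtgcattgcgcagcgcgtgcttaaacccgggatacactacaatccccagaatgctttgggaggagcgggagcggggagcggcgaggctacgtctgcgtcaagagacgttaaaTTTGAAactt
Ttk (chr9:83834439-83834738, plus strand): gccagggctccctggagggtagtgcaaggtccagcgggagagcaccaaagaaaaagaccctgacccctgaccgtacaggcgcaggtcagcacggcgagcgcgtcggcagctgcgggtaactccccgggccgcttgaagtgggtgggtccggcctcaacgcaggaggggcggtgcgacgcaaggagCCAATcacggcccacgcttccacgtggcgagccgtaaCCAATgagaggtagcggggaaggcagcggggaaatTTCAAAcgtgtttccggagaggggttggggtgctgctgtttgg
Bub1 (chr2:127831810-127832109, minus strand): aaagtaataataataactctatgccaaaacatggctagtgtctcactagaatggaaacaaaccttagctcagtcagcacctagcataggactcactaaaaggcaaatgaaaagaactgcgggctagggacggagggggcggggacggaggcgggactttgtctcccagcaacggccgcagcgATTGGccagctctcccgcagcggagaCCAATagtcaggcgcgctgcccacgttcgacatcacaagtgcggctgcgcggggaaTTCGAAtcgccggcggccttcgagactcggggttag

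In mitotic cells the CHR and the CCAAT box are found in many promoters of genes expressed in G2 and mitosis. The Ttk window holds TTTGAA on the other strand from 8 to 13 bases after the start, and CCAAT boxes that begin 65 and 28 bases before it. Bub1b has TTTGAA from 41 to 46 bases after the start and TTCGAA that begins 188 bases before it. Bub1 has TTCGAA from 15 to 20 bases after the start, and CCAAT boxes that begin 68 and 42 bases before it.

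Bub3 has 2 annotated starts in the table, and both of its windows hold TTTGAA on the other strand and a pair of CCAAT boxes. A CHR or its variant together with a CCAAT box was thus present in a window of 4 of the 6 genes, Bub1, Bub1b, Bub3 and Ttk, and in a window of 8.61% of all 27025 genes in the table. These letters were not in the window of Mad2l1 or in the 2 windows of Mad1l1. The E2F letters TTTGGCGC and TTTCGCGC were in the windows of 0 of the 6 genes and in those of 0.929% of all genes. These matches describe the letters alone, and no binding was measured.

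Each sample was read on its own Affymetrix mouse Gene ST array, and the values below are log2 levels. Brwd1, the mutated gene, was at 4.41, 4.56 and 4.50 in the mutant samples, against 8.91, 9.08 and 8.98 in the wildtype samples, which matches the labels. As a guide to background, the level at the 95th percentile of 1210 olfactory or vomeronasal receptor probe sets was 4.48, and every checkpoint gene lay above it on every array, between 7.49 and 11.54. Levels of different probe sets cannot be read as a ranking of transcript amounts, so the genotypes are compared gene by gene. Where probe sets are set beside the guide or each other below, the levels describe array signal alone. The array medians were 4.71 to 4.79 in the mutant and 4.69 to 4.71 in the wildtype samples, and the upper quartiles 7.04 to 7.09 and 7.10 to 7.12.

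The checkpoint genes showed small differences between the genotypes, and 0 of 6 passed the threshold of 0.05 on the adjusted p (limma, Benjamini-Hochberg over 23410 probe sets), against 0.137% of all probe sets tested. Mad2l1 was lower in the mutant samples by 0.20 on the log2 scale, and Bub1, Bub1b, Ttk and Mad1l1 were higher by 0.03 to 0.09, while Bub3 was at -0.01. Before adjustment, limma's p was under 0.05 for 1 of the 6, Mad2l1, lower in the mutant, against 7.4% of all probe sets in that direction and 14.7% in either. Among genes above the background guide, as all 6 are, these shares were 10.7% and 19.7%. The median of the 6 differences was 0.050, beside 0.013 over all 19938 genes, with 4 members higher and 2 lower, and it was -0.0067 after centring each array on its median. With pools of whole oocytes, a change in the amount of RNA per oocyte and a change in the share of oocytes that hold it cannot be told apart.

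**Figure D1:**
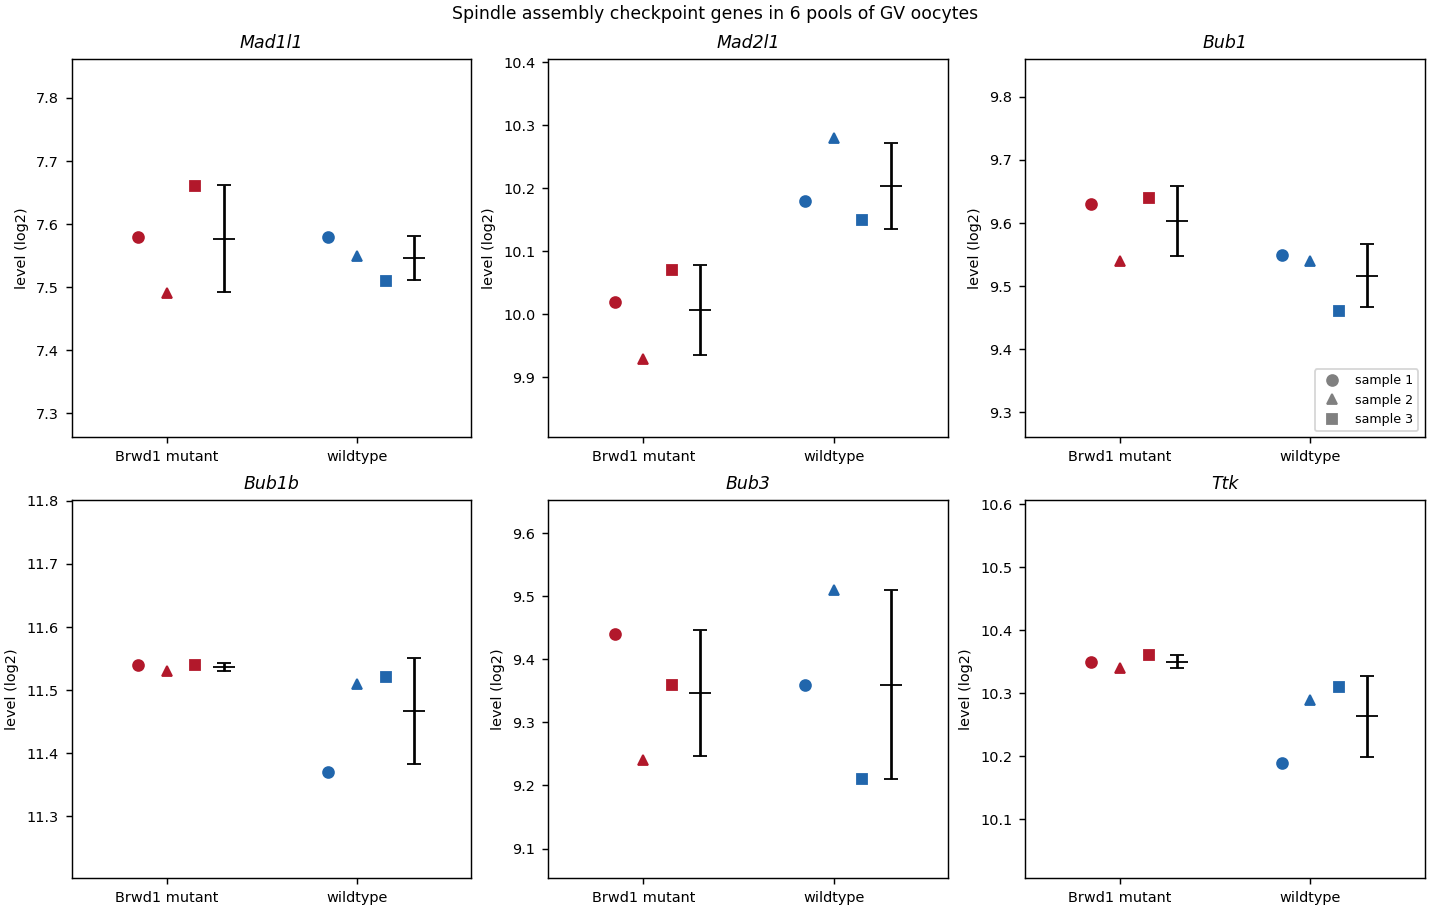
Log2 level of each checkpoint gene in each sample, with Brwd1 mutant samples in red on the left and wildtype samples in blue on the right; the marker shape gives the sample number, the bar the mean and SD of 3 samples, and every panel spans the same log2 range. Mad2l1 is lower in all 3 mutant samples than in all 3 wildtype samples, Bub1b and Ttk are higher in all 3 mutant samples, and the other genes overlap.

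Mad2l1 encodes MAD2, the subunit of the mitotic checkpoint complex that captures CDC20. Its level was 10.02, 9.93 and 10.07 in mutant samples 1, 2 and 3, against 10.18, 10.28 and 10.15 in wildtype samples 1, 2 and 3. The highest mutant sample lay 0.08 below the lowest wildtype sample, so the groups did not overlap. The means were 10.01 ± 0.071 in the mutant and 10.20 ± 0.068 in the wildtype samples (SD, n = 3 each). The log2 difference was -0.20 (SE 0.066, 95% confidence interval -0.35 to -0.04), a fold of 1.15 (limma, unadjusted p = 0.0214, Benjamini-Hochberg adjusted p = 0.261). An exact two-sided permutation test over the 6 samples gave p = 0.1, the smallest that 3 against 3 samples allow.

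Mad2l1 ranked 1661 of 19938 genes by p, within the leading 8.33%, and its absolute difference was at the 80.8th percentile of all genes. Its sign was negative under each of the 17 alternative settings tried, with values from -0.25 to -0.16 and limma adjusted p-values from 0.167 to 0.466. Mad2l1 was also set within each array against the median level of the other 5 checkpoint genes, which removes any offset shared by an array. Mad2l1 stood 0.39, 0.39 and 0.43 above that median in the mutant samples, against 0.63, 0.74 and 0.69 in the wildtype samples. On every array that median was the level of Bub1, which was itself 0.09 higher in the mutant samples. The distance therefore holds the difference of Bub1 as well as that of Mad2l1. Only the change of this distance between arrays is informative, and the comparison was chosen after the values were seen and was not tested.

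Mad1l1 encodes MAD1, the kinetochore-bound partner of MAD2. Its level was 7.58, 7.49 and 7.66 in the mutant samples, against 7.58, 7.55 and 7.51 in the wildtype samples. All 3 wildtype values lay within the range of the mutant values. The log2 difference was 0.03 (SE 0.065, 95% confidence interval -0.12 to 0.18; limma, adjusted p = 0.859), and its sign turned without mutant 3 (-0.012) and after centring each array on its median (-0.027).

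Ttk encodes the kinase MPS1, at the top of the checkpoint cascade. Its level was 10.35, 10.34 and 10.36 in the mutant samples, against 10.19, 10.29 and 10.31 in the wildtype samples. The groups did not overlap, but the closest values differed by 0.03, and wildtype 1 was the lowest sample. The log2 difference was 0.09 (SE 0.058, 95% confidence interval -0.05 to 0.22; limma, adjusted p = 0.530), and it was 0.05 without wildtype 1.

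Bub1b encodes BUBR1, a kinase-like protein of the mitotic checkpoint complex. Its level was 11.54, 11.53 and 11.54 in the mutant samples, against 11.37, 11.51 and 11.52 in the wildtype samples. Here too the groups did not overlap, by a margin of 0.01, with wildtype 1 set apart from the other samples. The log2 difference was 0.07 (SE 0.062, 95% confidence interval -0.08 to 0.22; limma, adjusted p = 0.640), and without wildtype 1 it was 0.022.

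Bub1 encodes the kinase that marks centromeric histone H2A and so helps to place shugoshin. Its level was 9.63, 9.54 and 9.64 in the mutant samples, against 9.55, 9.54 and 9.46 in the wildtype samples. Mutants 1 and 3 were above all wildtype samples, and mutant 2 equalled wildtype 2. The log2 difference was 0.09 (SE 0.060, 95% confidence interval -0.06 to 0.23; limma, adjusted p = 0.544).

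Bub3 encodes the adaptor that carries BUB1 and BUBR1 to the kinetochore. Its level was 9.44, 9.24 and 9.36 in the mutant samples, against 9.36, 9.51 and 9.21 in the wildtype samples, the widest spread within groups of the 6 genes. The wildtype samples enclosed all mutant samples. The log2 difference was -0.01 (SE 0.094, 95% confidence interval -0.24 to 0.21; limma, adjusted p = 0.960), and its sign turned when mutant 2 or wildtype 2 was left out.

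**Figure D2:**
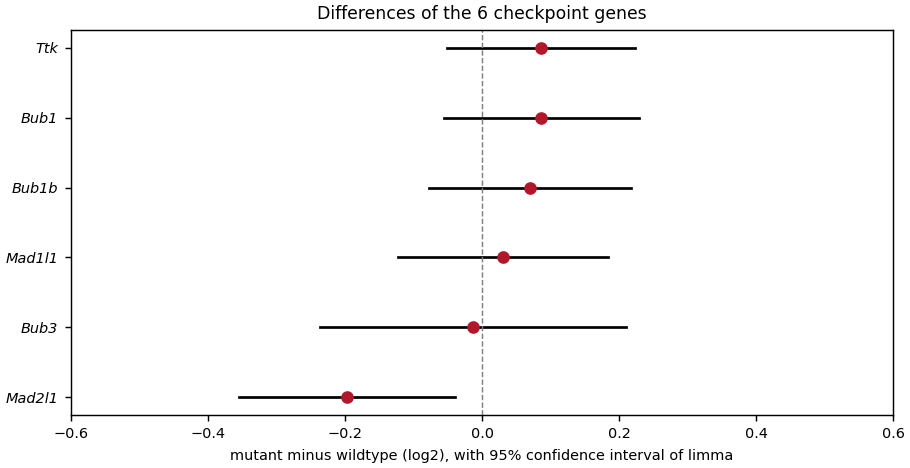
Mutant minus wildtype difference of each checkpoint gene on the log2 scale (red points) with the 95% confidence interval of the limma fit (lines). The intervals of 5 genes span 0, that of Mad2l1 runs from -0.35 to -0.04, and all lie between -0.35 and 0.23.

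The intervals limit how large a difference on the measured scale these 6 arrays leave room for. All 6 lay between -0.35 and 0.23, and the bound farthest from 0, that of Mad2l1, corresponds to a fold of 1.28. These are intervals for each gene alone, not adjusted for the number of genes, and amplification and array processing can make measured folds smaller than those in the cell. Differences near the size seen for Mad2l1 were rarely recovered in simulated data with the spread of these arrays, where 0.4% of differences of 0.25 passed, 42% of those of 0.5 and 88.4% of those of 1.

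The groups did not overlap for 3 of the 6 genes, Ttk and Bub1b with higher and Mad2l1 with lower levels in the mutant samples, against 19.7% of all probe sets tested (10.1% higher and 9.66% lower). Among the 12662 genes with a mean above the background guide, as all members are, that share was 23.6%. The median absolute difference of those genes was 0.11, larger than that of every member except Mad2l1. Their median difference was -0.003.

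**Figure D3:**
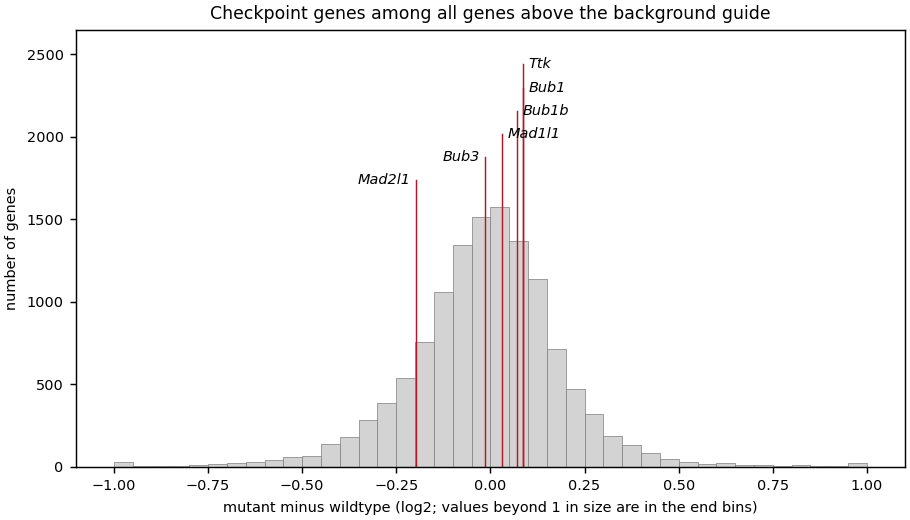
Histogram of the mutant minus wildtype log2 differences of the 12662 genes whose mean level is above the background guide, with the 6 checkpoint genes marked by red lines. Mad2l1, at -0.20, lies in the lower shoulder, and the other 5 genes lie within 0.09 of 0.

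The members differed in how closely they followed each other over the 6 samples. Of 15 pairs, 9 had a positive Pearson's r, and r ran from -0.59 for Mad2l1 and Ttk to 0.97 for Bub1b and Ttk. For Bub1b and Ttk, Spearman's rho was 0.99, with exact two-sided permutation p-values of 0.0028 for r and 0.0056 for rho, which were 0.0417 and 0.0833 after Benjamini-Hochberg adjustment over the 15 pairs. Wildtype 1 was the lowest sample for both genes, and r was 0.997 without the 2 samples farthest from the median of Bub1b. The genotypes form groups within these 6 points, and r of the deviations from the group means was 0.990 for this pair. That value still holds wildtype 1, and the value without 2 samples still holds the difference between the genotypes. Neither takes out both. Here and for the pairs below, the permutations shuffled all 6 samples without regard to genotype. Their p-values therefore cannot separate a shared group difference from levels that move together, and r is given as a description.

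Mad1l1 and Bub1 had the next highest values, with r of 0.78 and rho of 0.88 (exact permutation p = 0.0667 and 0.025, adjusted 0.5 and 0.188), r of 0.88 without the 2 farthest samples and of 0.87 within groups. Mad2l1 and its binding partner Mad1l1 had an r of 0.12 and a rho of 0.17 (exact permutation p = 0.833 and 0.75, adjusted 0.894 and 0.865), and r was -0.30 without the 2 farthest samples. Within groups, r of their deviations from the group means was higher, at 0.74. With values given to 2 decimals and an SD of 0.10 or less in 11 of the 12 sets of 3 samples, these coefficients describe very small movements.

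Genes whose levels followed each member most closely over the 6 arrays were looked up among 11960 genes above the guide, after predicted genes, unnamed clones, small RNA genes and the members themselves were left out, with Pearson's r as a description. The closest to Mad2l1 were Adss, an enzyme of adenine nucleotide synthesis, at r = 0.995, and Capns1, the small regulatory subunit of calpains, at 0.994. For Ttk they were Fes, a tyrosine kinase, at 0.998 and Arcn1, a subunit of the COPI vesicle coat, at 0.997, and for Bub1b they were Ppil4 at 0.991 and Igf1os at 0.989. Rnf220, a ubiquitin ligase, at 0.997 and Ireb2, an iron regulatory protein, at 0.989 were closest to Bub1.

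Fam234b at 0.990 and Map3k4, a kinase of MAP kinase cascades, at 0.989 were closest to Mad1l1. Rcc1, the guanine nucleotide exchange factor of Ran, and Prmt2, an arginine methyltransferase, were closest to Bub3, both at 0.990. Over only 6 arrays many genes reach such values: r was over 0.9 with 297 genes for Mad2l1, 204 for Ttk, 127 for Bub1b, 104 for Bub1, 69 for Bub3 and 51 for Mad1l1.

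The proteins that dock the checkpoint at the kinetochore or silence it gave no call either. Of 13 measured partners and silencers, 0 passed in either direction (limma, adjusted p), and the median difference was 0.010, with 7 higher and 6 lower. An unadjusted p under 0.05 was found for 3, as for 14.7% of all probe sets. Among all genes above the background guide, as 12 of these 13 are, that share was 19.7%. Haspin, the histone H3 kinase that places the chromosomal passenger complex, was at 9.18, 9.26 and 9.16 in the mutant samples, against 9.49, 9.52 and 9.34 in the wildtype samples. Every mutant sample was below every wildtype sample, by -0.25 between the means (SE 0.070; limma, adjusted p = 0.209).

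Knl1, the scaffold that MPS1 phosphorylates, was at 8.43, 8.44 and 8.39 in the mutant samples, against 8.58, 8.50 and 8.64 in the wildtype samples, without overlap (log2 difference -0.15; limma, adjusted p = 0.308). Nek2, a centrosomal kinase, was at 9.00, 8.98 and 9.04 in the mutant samples, against 8.78, 8.78 and 8.93 in the wildtype samples, also without overlap (0.18; limma, adjusted p = 0.285). Mad2l1bp, known as p31comet, which works with TRIP13 to take MAD2 off its partners, was at 6.81, 6.88 and 7.16 in the mutant samples, against 6.81, 6.74 and 6.59 in the wildtype samples (0.24; limma, adjusted p = 0.373). Mutant 1 equalled wildtype 1 for this gene, so the groups touched. The median of this list was negative, at -0.047, after median centring, and its sign also turned in 4 of the 6 fits without 1 array.

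Downstream of the checkpoint, 4 targets were measured and 0 passed (limma, adjusted p), with a median difference of 0 (-0.057 after median centring). Only 1, Ccnb2, had an unadjusted p under 0.05, against 14.7% of all probe sets and 19.7% of genes above the guide, as all 4 are. Ccnb2, cyclin B2, was at 9.75, 9.84 and 9.74 in the mutant samples, against 10.00, 9.91 and 9.96 in the wildtype samples, with no overlap and a difference of -0.18 (limma, adjusted p = 0.256). Cdc20, the activator of the anaphase-promoting complex that MAD2 and BUBR1 bind, was at 8.71, 8.74 and 8.89 in the mutant samples, against 8.48, 8.85 and 8.73 in the wildtype samples, with overlap (0.09; limma, adjusted p = 0.721). Pttg1, securin, differed by 0.007 and Espl1, separase, by -0.007 (limma, adjusted p = 0.965 and 0.967).

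Among 34 measured genes of the kinetochore core, 24 were lower and 10 higher in the mutant samples, with a median of -0.060, and 0 passed (limma, adjusted p), while 4 had an unadjusted p under 0.05, all lower. Among the 12662 genes above the guide, 50.5% were lower and 10.7% were lower with an unadjusted p under 0.05. The list median was negative under the 3 other scalings, from -0.12 to -0.038, and without each array, from -0.084 to -0.049. Spag5, the spindle protein astrin, was at 7.35, 7.29 and 7.49 in the mutant samples, against 7.65, 7.70 and 7.64 in the wildtype samples, without overlap (-0.29; limma, adjusted p = 0.171). Dsn1, of the MIS12 complex, differed by -0.22, Cenpc1, the inner kinetochore protein CENP-C, by -0.20 and Ska2, of the SKA complex, by -0.17 (limma, adjusted p = 0.250 to 0.293).

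MAD2 folds as a HORMA domain, and 5 other genes with this domain were measured, of which 0 passed (limma, adjusted p). An unadjusted p under 0.05 was found for 1, against 14.7% of all probe sets and 19.7% of genes above the guide, as all 5 are. That gene was Mad2l2, the closest relative of Mad2l1, which works in translesion DNA synthesis and end joining. Its level was 8.96, 8.92 and 8.96 in the mutant samples, against 9.14, 9.32 and 9.06 in the wildtype samples, lower without overlap like Mad2l1 (-0.23, SE 0.078; limma, adjusted p = 0.268). Hormad2, a meiotic chromosome axis protein, differed by 0.36 with overlap, and the autophagy genes Atg13 and Atg101 by -0.23 and -0.04 (limma, adjusted p = 0.456, 0.597 and 0.850).

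**Figure D4:**
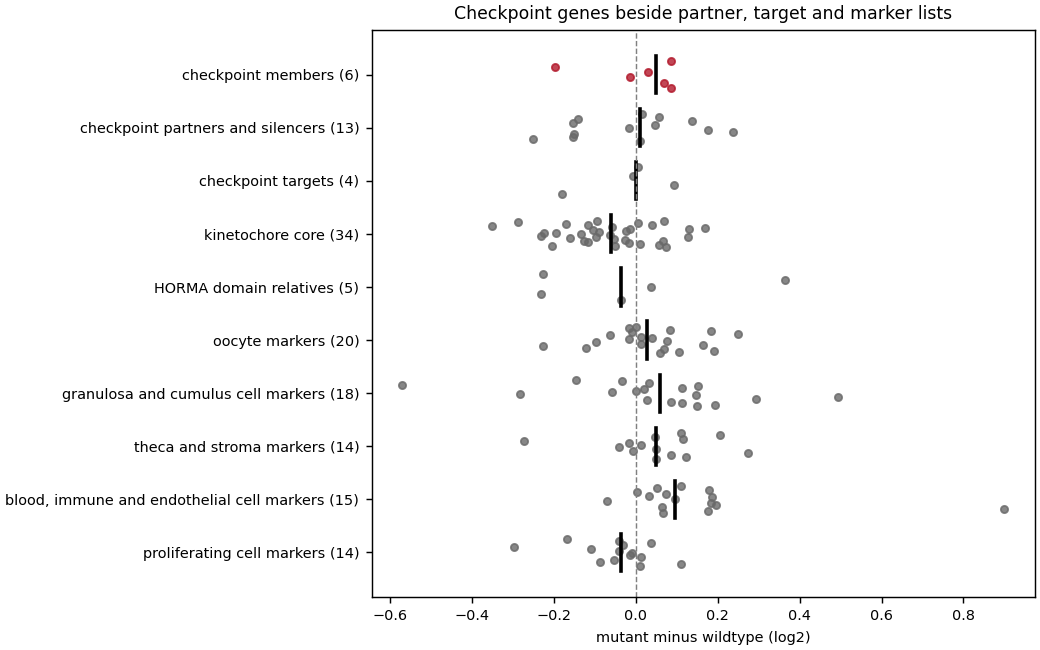
Mutant minus wildtype log2 difference of every measured gene (points) in the checkpoint genes (red) and in the partner, target and marker lists (gray), with the number of genes in brackets and the median as a black bar. The medians of the lists lie between -0.060 and 0.097.

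Oocyte markers were high as a list in every sample, with a mean level over 20 genes of 10.77 to 10.78 in the mutant and 10.73 to 10.76 in the wildtype samples. Not every marker was high. Sohlh1 was at 5.46, 5.41 and 5.61 in the mutant samples, against 5.28, 5.30 and 5.15 in the wildtype samples, with the guide at 4.48. Zp3, a zona pellucida protein, was at 11.84, 11.83 and 11.90 in the mutant samples, against 11.90, 11.87 and 11.80 in the wildtype samples, and Gdf9, an oocyte growth factor, differed by 0.07. Sohlh1 at 0.25, Kit at -0.23, Lhx8 at 0.16 and Zar1 at 0.18 had the smallest p-values of this list, and 0 of the 20 passed (limma, adjusted p).

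Of 47 markers of other ovarian cells, 22 were above the background guide, counting for Insl3 a probe set annotated as Rlf. The 18 granulosa and cumulus markers had a mean level of 4.87 to 4.96 in the mutant and 4.86 to 4.88 in the wildtype samples, and 10 of them were above the guide. Fshr, the receptor of follicle-stimulating hormone, was at 4.17, 4.40 and 4.27 in the mutant samples, against 4.14, 4.25 and 4.19 in the wildtype samples, under the guide in every one. The brightest of the list was Nr5a2, a nuclear receptor, at 9.21, 8.92 and 9.01 in the mutant samples, against 8.62, 9.15 and 8.91 in the wildtype samples. Gata4, a transcription factor, was at 8.22, 8.17 and 8.11 in the mutant samples, against 7.85, 7.79 and 7.98 in the wildtype samples, without overlap. Nr5a2, and Pecam1 and Tek of the endothelial list, are named after their values were seen, for their levels. Gata4 at 0.29, Ptgs2 at -0.57, Has2 at 0.49 and Amhr2 at 0.19 had the smallest p-values, with Amhr2 under the guide in every sample.

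The 14 theca and stroma markers, 5 above the guide, had a mean level of 4.21 to 4.25 in the mutant and 4.15 to 4.23 in the wildtype samples. These figures include, for Insl3, a probe set that is annotated as Rlf and not as Insl3. It had a mean of 5.49 over the 6 arrays, above the guide, and cannot be read as a theca cell signal. Cyp17a1, which marks theca cells, was under the guide in every sample. Col3a1 at 0.27, Nr2f2 at -0.27, Col1a1 at 0.12 and Pdgfra at 0.12 had the smallest p-values, with Pdgfra under the guide in every sample. The 15 blood, immune and endothelial markers, 7 above the guide, had a mean level of 4.66 to 4.78 in the mutant and 4.53 to 4.58 in the wildtype samples, with Ptprc under the guide in every sample. Of these 15, 14 were higher and 1 lower in the mutant samples, with a median difference of 0.097 and of 0.040 to 0.055 under the other scalings. After median centring 11 were higher and 4 lower, and after quantile normalization again or cyclic loess 13 and 2. Over all 19938 genes 53.4% were higher, and among those above the guide 48.8%. The share was thus greater among genes under the guide, where most of these 15 markers lie. The endothelial genes Pecam1 and Tek were at 7.62 to 8.08 and 6.41 to 6.93 in the mutant samples, against 7.57 to 7.74 and 6.52 to 6.57 in the wildtype samples. C1qb, a complement subunit made by macrophages, was at 6.71, 6.92 and 7.06 in the mutant samples, against 5.74, 5.76 and 6.49 in the wildtype samples, without overlap. In that list C1qb at 0.90, Cd14 at 0.20, Cd3e at 0.18 and C1qa at 0.18 had the smallest p-values. Cd14 was under the guide in every sample, as were C1qc, Adgre1, Csf1r, Lyz2 and Itgam. C1qa had a mean of 4.61 over the 6 arrays, near the guide at 4.48. Of the 47 markers in these 3 lists, 0 passed (limma, adjusted p) and 10 had an unadjusted p under 0.05, against 14.7% of all probe sets. The part of these markers in the differences of the checkpoint genes was not tested.

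**Figure D5:**
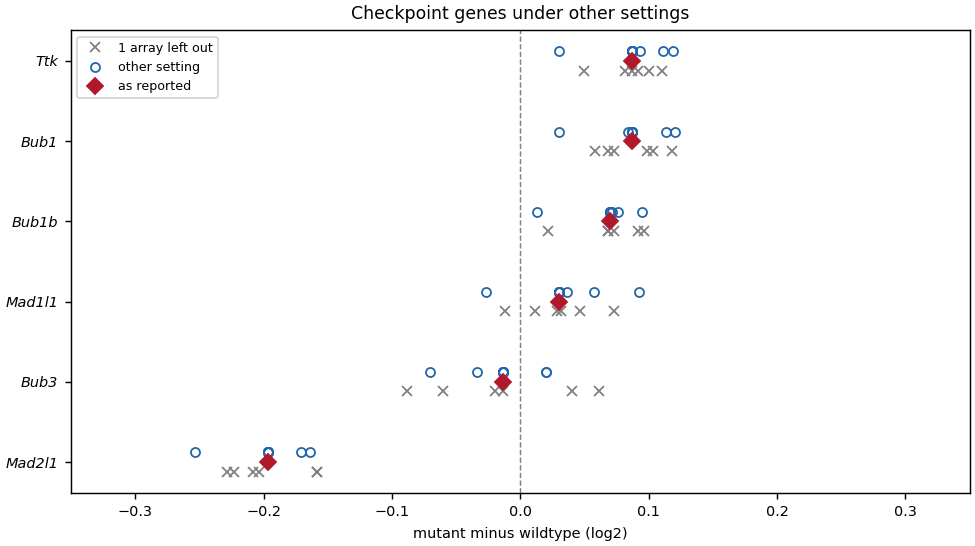
Mutant minus wildtype log2 difference of each checkpoint gene as reported (red diamonds), with 1 array left out (gray crosses) and under the other settings (blue circles). Mad2l1 stays between -0.25 and -0.16, Ttk, Bub1 and Bub1b stay above 0, and Mad1l1 and Bub3 take both signs.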

How the data were processed

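Transcript levels were measured in 3 mutant and 3 wildtype samples. The deposited values are log2 values, made with Affymetrix Expression Console 1.1 and RMA per the submitters' processing notes. RMA corrects background, equalises the distributions of the arrays and gives 1 value per probe set, so a change in total RNA per oocyte cannot be seen, and differences near background are compressed. Per the labels' protocols, 1 ng of total RNA was amplified before labelling.

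Of 35556 probe sets, 23410 had a gene symbol in the array annotation, 21789 of them exactly 1, and all 23410 were tested. The brightest single-symbol probe set stood for each gene. Mutant minus wildtype differences were fitted in R 4.3.3 by limma 3.58.1, using lmFit and eBayes without covariates and two-sided p-values, with Benjamini-Hochberg adjustment over all probe sets tested and a threshold of 0.05. The fit was tested on simulated data in which 200 probe sets were changed in 5 runs, and 5.47% of its calls were false. Correlations used Python 3.11.15. Precision is limited by the 3 arrays per group.

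Named were Brwd1, the 6 members, up to 4 genes of each other list with the smallest p, 5 defining markers, and for each member the 2 genes with the highest r. The members and lists were chosen with earlier results of these data known. List genes without a probe set of their own were not analysed here, except Insl3. For it a probe set annotated as Rlf was entered through a shared alias.

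Same-numbered samples did not deviate together (r of deviations from the group means -0.031 to 0.036), so the numbers were not taken as pairs. Alternatives were the replicate block, filters on dim probe sets, other scalings and variance settings, other sets of probe sets, and leaving out each array.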

Additional observations from a re-analysis of the deposited data

How the results depend on the processing

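Of the 6 checkpoint genes, 0 passed in any of the 17 alternatives, and Mad2l1, Bub1, Bub1b and Ttk kept their direction in all of them. Bub3 turned to 0.020 after a repeated quantile normalization or cyclic loess, and ran from -0.088 to 0.062 without 1 array. Mad1l1 was at -0.027 after median centring and ran from -0.012 to 0.073 without 1 array. The median of the 6 genes was -0.0067 after median centring, where the median difference over all probe sets was -0.047, against 0.010 as reported. The cause of these turns was not tested. Brwd1 passed in every alternative, at -4.56 to -4.46. The number of probe sets called over the whole array, 32 as reported, depended on the setting. It was 1 with the replicate block, with all probe sets of the table or with identical probe sets counted once, 15 with probe sets averaged per gene and 76 with trend and robust settings, and it ran from 1 to 18 without 1 array. The replicate block changed no call of a checkpoint gene, with Mad2l1 at an adjusted p of 0.372 (limma). No depth is known for arrays, and 3 samples per group limit what can be called.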

Other observations

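Genes of proliferating cells, many of which share cell cycle control with the checkpoint genes in mitotic cells, were looked at beside them. Of 14 measured, 10 were lower and 4 higher in the mutant samples, while 50.5% of genes above the guide, as all 14 are, were lower. The median was -0.035, and it turned to 0.016 after quantile normalization again. After cyclic loess 7 were lower and 7 higher, and after median centring 13 and 1. Of the 14, 0 passed (limma, adjusted p). Lower with an unadjusted p under 0.05 (limma) was 1, against 10.7% of genes above the guide. That gene was Mybl2, which encodes B-MYB, a factor of the complex that acts at CHR promoters in dividing cells. It was at 9.37, 9.32 and 9.16 in the mutant samples, against 9.58, 9.65 and 9.51 in the wildtype samples, without overlap, a difference of -0.30 on the log2 scale (SE 0.076; limma, adjusted p = 0.190). Cdk1, the catalytic partner of cyclin B, was at 9.67, 9.49 and 9.66 in the mutant samples, against 9.69, 9.69 and 9.70 in the wildtype samples, a difference of -0.09 (limma, adjusted p = 0.591). Tyms, thymidylate synthase, differed by -0.17 and Ccne2, cyclin E2, by 0.11 (limma, adjusted p = 0.404 and 0.516).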
